A study of Mus musculus with 4 samples.

Results

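Neuroendocrine cells are rare hormone-secreting cells scattered through the prostate epithelium. They store peptide hormones in dense-core granules, whose matrix is built from granins (chromogranins and secretogranins). Prohormone convertases cut the stored precursors into active peptides, and the vesicle protein synaptophysin and the adhesion molecule NCAM1 are markers that neuroendocrine cells share with nerves. The gene Calca gives rise to calcitonin and, by alternative splicing, to the neuropeptide alpha-CGRP, and its relative Calcb encodes beta-CGRP. The genes described here are Calca, Calcb, Chga, Chgb, Scg2, Scg5, Pcsk1, Pcsk2, Syp and Ncam1. They were picked by name, with earlier results of these data known and no filter on their level. All 10 were found among the 23242 rows of the deposited expression table.

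RNA was sequenced from ventral and dorsal prostate lobes of 4 mice of the FVB strain. Mice 27 and 28 were wild type and negative for ERG, and mice 26 and 29 were homozygous for a TMPRSS2:ERG transgene and positive for ERG. The transgene is an artificial chromosome with the TMPRSS2 locus into which exons of human ERG had been placed behind a removable GFP cassette. It was activated by Cre protein in the fertilised egg and bred to homozygosity from 1 sub-line, so that both homozygotes carry the same insertion. The mice's age is not stated in the labels used here.

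Values are FPKM (fragments normalised to transcript length and to library size), scaled so that the libraries share a common median level, and are called scaled FPKM. Each library's value is given in the order mouse 27, 28 (wild type), 26, 29 (homozygous). Depth was alike: 1 fragment on a transcript of 1 kb was worth an estimated 0.0212 to 0.0236 FPKM, and fragment numbers below come from that estimate. Nothing in the labels says how the mice were related, and p-values measure the spread between these libraries. Prostate identity was clear in all libraries: the secreted protein gene Pbsn lay between 9477 and 14385 scaled FPKM, and the lineage factor Hoxb13 between 237 and 288. Mouse Erg lay between 0.881 and 1.12 scaled FPKM and does not check the labels, because the transgene carries human exons. The libraries differed in other tissues too. Of 8 seminal vesicle genes tested 6 fell in homozygotes, namely Svs1, Svs3a, Svs3b, Svs6, Sva and Spinkl, while Pate4, the most abundant, did not pass. The wild types were themselves far apart, with Svs1 at 3421 in mouse 27 and 236 in mouse 28 and at 3.83 and 1.05 in the homozygotes. All 6 calls were lost with a robust trend (adjusted p from 0.164 to 0.263) and with no filter, and those of Svs6, Sva and Spinkl also without mouse 26 or mouse 29 and with unscaled FPKM. All 10 smooth muscle markers had log2 differences below 0 (median -0.56, and -0.60 for Acta2, the most abundant), although none passed singly by limma, and 7 had an unadjusted p under 0.05, against 21.0% of all tested genes. Without mouse 28 all 10 were still below 0 (median -0.78, against -0.0007 over all tested genes). In bulk tissue, fewer cells of a type and less RNA per cell cannot be told apart.

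Promoter sequence was available in RefSeq (GRCm38.p6) for 8 of the 10 genes, all but Calcb and Ncam1. Several granin genes are textbook targets of CREB, the factor that binds the cAMP response element, and the sequences are shown because that element marks which members carry this shared letter pattern. The element TGACGTCA, a palindrome and so the same on both strands, or the variant TGACGTAA, searched on both strands, occurred in the 250 bases before the start of 4 of the 8. It occurred in 1.98% of all 32851 promoters of that length. In these stretches of 30 bases, written along the gene's own strand, the capitals mark the element.

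Scg2 (chr1:79440076-79440105, minus strand): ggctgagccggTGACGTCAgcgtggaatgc
Chgb (chr2:132781559-132781588, plus strand): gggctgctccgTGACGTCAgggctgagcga
Pcsk1 (chr13:75089768-75089797, plus strand): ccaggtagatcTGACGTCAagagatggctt
Chga (chr12:102554886-102554915, plus strand): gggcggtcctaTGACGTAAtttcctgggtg

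The element began 68, 72, 78 and 44 bases before the RefSeq start of Scg2 (79440026), Chgb (132781642), Pcsk1 (75089857) and Chga (102554941). These starts are not the ends of the gene spans given below, which come from the deposited table: the Chgb element lies inside that gene's span and the Scg2 element crosses its end. Calca held neither form. Its upstream sequence carried only the shorter core TGACG, in capitals below, 65 bases before the RefSeq start. That core overlaps both longer forms and is found in 17.8% of promoters, and in 7 of these 8.

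Calca (chr7:114636358-114636607, minus strand): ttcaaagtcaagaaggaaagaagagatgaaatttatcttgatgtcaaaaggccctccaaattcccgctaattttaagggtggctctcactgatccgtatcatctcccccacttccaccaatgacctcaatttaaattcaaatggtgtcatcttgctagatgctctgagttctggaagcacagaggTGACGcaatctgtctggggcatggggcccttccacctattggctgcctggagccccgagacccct

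A match of letters is a description and not evidence of a bound site.

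The comparison of homozygotes with wild types asks which neuroendocrine transcripts differ in prostate that carries the fusion gene. Calca rose in homozygotes and Ncam1 fell. Scg2, Chgb, Syp, Pcsk1 and Pcsk2 followed another order, in which 1 wild-type library, mouse 28, was high and the other 3 were low. Of the 10 genes, 6 passed the filter of a mean of 1 scaled FPKM and were tested with limma, with p-values adjusted over all 11762 genes tested. Of these 6, 2 were called, where 7.65% of all tested genes were called. Of the 6, 1 rose, against 4.65% of all tested genes, and 1 fell, against 3.00%. Calca passed the filter only through the homozygotes, and Scg2 only through mouse 28, so the 6 are not a neutral sample of the 10. The 10 were themselves chosen with earlier results of these data known, so these shares are a description and not a test.

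**Figure D1:**
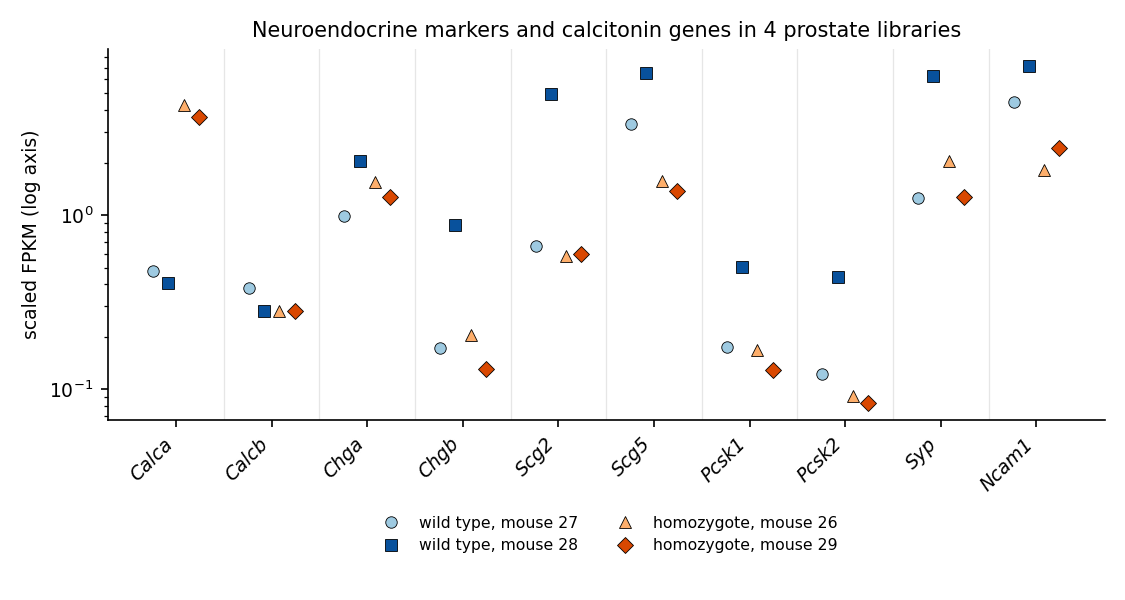
Scaled FPKM (log axis) of the 10 genes in each of the 4 libraries, blue for wild type and orange for homozygotes. Calca is near 4 in both homozygotes and under 0.5 in both wild types, whereas mouse 28 (dark squares) is the highest library for 8 of the other 9 genes.

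Calca (Entrez 12310, chromosome 7, 114631478 to 114636357, mm10) was at 0.481 and 0.410 scaled FPKM in wild-type mice 27 and 28 and at 4.25 and 3.66 in homozygous mice 26 and 29. The groups lay far apart, and each genotype's libraries lay close together. The wild-type mean was 0.446 ± 0.0498 (SD, n = 2) and the homozygote mean 3.96 ± 0.418 (SD, n = 2), an 8.88-fold ratio. On the scale of log2(scaled FPKM + 1), where changes of low genes come out too small, the difference was 1.78 (SE 0.128, limma adjusted p = 0.00163). Those levels correspond to an estimated 19 and 18 fragments in the wild types and 193 and 179 in the homozygotes. The exact permutation test gave p = 0.333, the smallest that 2 libraries against 2 allow. The limma call held without any 1 library and was lost only when no filter on low values was used (adjusted p = 0.0683), with adjusted p-values from 0.000115 to 0.0683 over 11 alternatives. The deposited table gives 1 value per gene, so calcitonin and CGRP transcripts cannot be told apart.

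Calcb (Entrez 116903, chromosome 7, 114718643 to 114723365), which encodes beta-CGRP, was at 0.380, 0.281, 0.283 and 0.280 scaled FPKM across mice 27, 28, 26 and 29. All 4 libraries were low, the genotypes overlapped (exact permutation p = 0.667) and the gene did not pass the filter. These levels stand for an estimated 12 to 14 fragments each. The longest identical run between a Calca and a Calcb transcript of GENCODE was 61 bases. Fragments from that run could have been counted for either gene, and their assignment is not described in the labels used here.

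Genes near Calca did not all move with it. Within 500 kb the table holds 8 other genes. Pde3b, a phosphodiesterase that degrades cyclic AMP and cyclic GMP, lay at a midpoint distance of -157 kb and was at 6.21, 6.78, 18.2 and 16.7 scaled FPKM across mice 27, 28, 26 and 29. It rose by 1.3 (log2; SE 0.110, limma adjusted p = 0.00264). Cyp2r1, a vitamin D 25-hydroxylase gene between Pde3b and Calca, was at 0.962, 0.938, 1.33 and 0.797 and did not pass (limma adjusted p = 0.874). The proteasome gene Psma1 (-0.02) and the coat protein gene Copb1 (-0.03) had log2 differences near 0, and the other 4, Calcb among them, did not pass the filter. The 500 kb window was chosen after the values were seen.

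**Figure D2:**
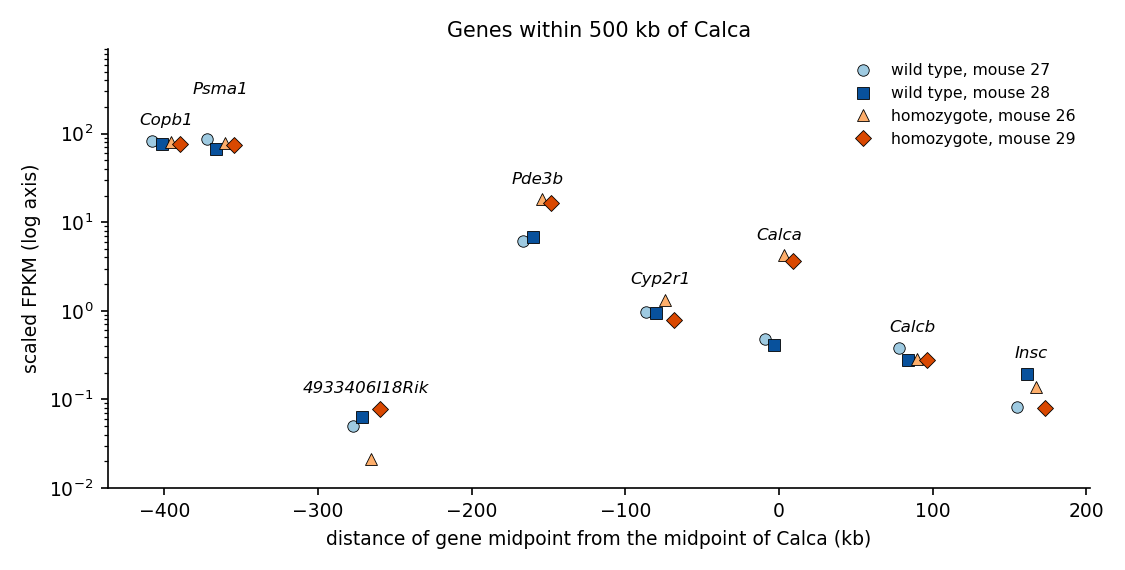
Scaled FPKM (log axis) in each library of the genes within 500 kb of Calca, placed by the distance of their midpoints in kb, with markers of 1 gene spread sideways for legibility. Pde3b and Calca are higher in both homozygotes, and Cyp2r1 and Calcb are not; A730082K24Rik, listed at 0 in all 4 libraries, is not drawn.

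Over the 4 libraries, the 5 tested genes whose centred log2 profiles lay nearest to that of Calca were Il1rl1 (distance 0.082), Cml3 (0.082), Lgals3bp (0.112), Gjb1 (0.155) and Bcl2l15 (0.165). Il1rl1, a receptor gene for interleukin-33, was at 0.124, 0.147, 3.06 and 2.54 scaled FPKM across mice 27, 28, 26 and 29. Lgals3bp was at 22.5, 20.7, 77.0 and 65.7 in the same order. With 4 libraries, many genes that separate the genotypes by a like amount on the log2(scaled FPKM + 1) scale give a small distance. Their ratios of scaled FPKM can still differ, because changes of low genes come out too small there. Il1rl1 and Cml3 reached the filter only through the homozygotes.

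The other genes of calcitonin signalling, a list of 11 with Calca and Calcb in it, held 8 tested genes. Of these 2 rose, Calca and Ramp2, and none fell. Beside the counts of this list and those below stand 4.65% of all tested genes that rose and 3.00% that fell. In the authors' deposited table, 14.2% of the genes with a q-value had one under 0.05. The median log2 difference of the list was 0.03, against -0.003 over all tested genes. Ramp2, the partner protein that turns the receptor Calcrl into an adrenomedullin receptor, was the most abundant gene of the list at 8.07 and 8.51 scaled FPKM in the wild types and 24.6 and 23.7 in the homozygotes. It rose by 1.44 (SE 0.101, limma adjusted p = 0.00154) and passed in all 12 alternatives. Calcrl itself was at 3.55, 3.12, 3.14 and 3.75 in mice 27, 28, 26 and 29, with a log2 difference of 0.04 (SE 0.130). Ramp1, which makes the same receptor bind CGRP, was at 19.9, 13.1, 17.7 and 13.1 and did not pass (limma adjusted p = 0.905). The adrenomedullin gene Adm had a difference of 0.03, and the calcitonin receptor gene Calcr was listed at 0 in mice 27, 26 and 29. The related partner gene Ramp3 was at 2.94, 1.41, 1.35 and 2.10 in mice 27, 28, 26 and 29 (-0.19, limma adjusted p = 0.769). Of the Ramp partner genes only Ramp2 thus rose, while Ramp1, Ramp3 and Adm did not pass.

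**Figure D3:**
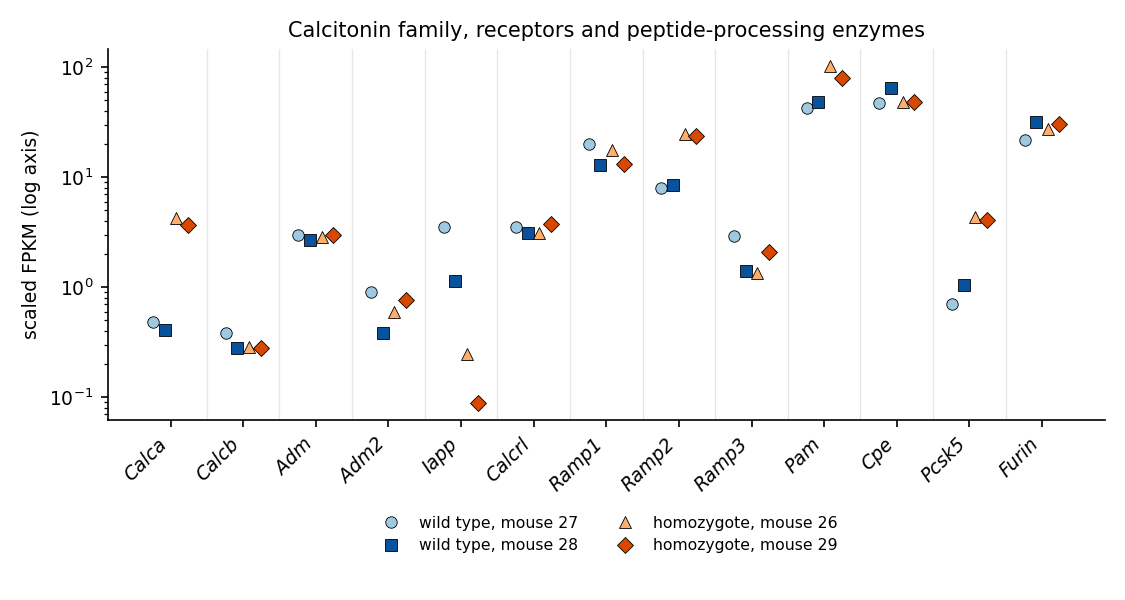
Scaled FPKM (log axis) of the calcitonin family, its receptor parts and enzymes that process peptide precursors in each library. Calca, Ramp2, Pam and Pcsk5 are higher in both homozygotes, and Calcrl, Ramp1 and Cpe overlap between genotypes.

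Among the granins, Scg2 (Entrez 20254, chromosome 1, 79434669 to 79440090), the precursor of secretoneurin, was at 0.667 and 4.96 scaled FPKM in wild-type mice 27 and 28 and at 0.581 and 0.598 in homozygous mice 26 and 29. Mouse 28 stood alone, 7.43-fold above mouse 27, which was the next highest library. The log2 difference was -0.99 with an SE of 0.560 (limma adjusted p = 0.402), and without mouse 28 the gene no longer passed the filter. Chgb, chromogranin B (Entrez 12653, chromosome 2, 132781278 to 132795072), was at 0.173, 0.881, 0.205 and 0.132 in mice 27, 28, 26 and 29. It overlapped between genotypes (exact permutation p = 0.667) and did not pass the filter, at an estimated 19 fragments in mouse 27 and 109 in mouse 28. Chga, chromogranin A (Entrez 12652, chromosome 12, 102554969 to 102565027), the classical serum and tissue marker of neuroendocrine tumours, was at 0.993, 2.03, 1.55 and 1.27 in mice 27, 28, 26 and 29. Both homozygotes lay between the wild types, and the log2 difference was -0.03 (SE 0.221, limma adjusted p = 0.963). Its sign was not stable: it was 0.27 without mouse 28, and above 0 also with unscaled FPKM, with quantile normalization and without mouse 29.

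Scg5 (Entrez 20394, chromosome 2, 113776313 to 113829091), which encodes 7B2, the chaperone of the convertase PC2, was at 3.33 and 6.54 scaled FPKM in the wild types and at 1.57 and 1.36 in the homozygotes. Both wild types were above both homozygotes, and mouse 28 was the highest. The means were 4.93 ± 2.27 (SD, n = 2) and 1.46 ± 0.142 (SD, n = 2). The log2 difference was -1.21 (SE 0.265, limma adjusted p = 0.0545), just outside the threshold. It passed in 5 of 11 alternatives, among them without mouse 28 (-0.81, adjusted p = 0.01) and without mouse 27 (-1.63), with adjusted p-values from 0.000167 to 0.335.

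The prohormone convertases had the lowest means over the 4 libraries among the 10 genes. Pcsk1, which encodes PC1/3 (Entrez 18548, chromosome 13, 75089987 to 75132498), was at 0.175 and 0.504 scaled FPKM in the wild types and at 0.168 and 0.129 in the homozygotes. Pcsk2, which encodes PC2 (Entrez 18549, chromosome 2, 143546133 to 143816282), was at 0.122 and 0.441 in the wild types and at 0.0915 and 0.0835 in the homozygotes. In both, mouse 27 lay only slightly above the higher homozygote, and mouse 28 lay 2.88-fold and 3.60-fold above the next library. Neither passed the filter, and the exact permutation p was 0.333 for each.

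The vesicle protein gene Syp, synaptophysin (Entrez 20977, chromosome X, 7638580 to 7653256), was at 1.26 and 6.30 scaled FPKM in the wild types and at 2.03 and 1.27 in the homozygotes. Mouse 27 was the lowest library and mouse 28 the highest, so that the homozygotes lay between the wild types. The log2 difference was -0.63 (SE 0.532, limma adjusted p = 0.588), and it changed sign to 0.21 without mouse 28.

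Ncam1, the neural cell adhesion molecule gene (Entrez 17967, chromosome 9, 49502146 to 49799069), was at 4.47 and 7.14 scaled FPKM in wild-type mice 27 and 28 and at 1.80 and 2.41 in homozygous mice 26 and 29. The groups did not overlap, and the ratio of means was 2.75-fold in favour of wild type. The fall of Ncam1 was -1.11 in log2 units (SE 0.219, limma adjusted p = 0.0417). It was the best covered of the 10 genes, with an estimated 538 to 2116 fragments per library. The call held without mouse 28 (-0.82, adjusted p = 0.0180) and without mouse 27, and was lost without mouse 26 (0.161), without mouse 29 (0.0663), with unscaled FPKM (0.104) and with no filter (0.292). Adjusted p-values ran from 0.000729 to 0.292 over 11 alternatives. The nearest profiles over the 4 libraries were those of Fbxo32 (distance 0.142), Krt78 (0.157), Dusp4 (0.168), Dock8 (0.169) and Ociad2 (0.171).

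Over all 10 genes, mouse 28 was the highest library in 8, where it was highest in 33.1% of all genes with any value above 0. It lay at least 2-fold above the next highest library in 5 (Scg2, Chgb, Syp, Pcsk1 and Pcsk2), against 5.32% of all such genes. The genotypes did not overlap in 6, with 1 higher in homozygotes and 5 lower, against 22.1% and 26.4% of all such genes. When 1 library was left out, only members that passed the filter were tested. These were 5 of the 10 without mouse 28 and 6 without mouse 27, 26 or 29. The shares beside the calls below are of tested genes, so those calls are to be read over these tested members. With mouse 28 left out 3 of the 10 were called (Calca, Scg5 and Ncam1), against 13.9% of all genes tested. With mouse 27 left out 5 were called, against 17.2%. Leaving out mouse 26 called 1, Calca, against 3.01%, and leaving out mouse 29 called the same gene, against 3.36%. Leaving out genes listed at 0 in any library, added after seeing the data, called 3 of 6 tested members, against 7.91% of all genes tested. Without mouse 27 the only wild type was mouse 28, through which alone Scg2 passed the filter. The log2 differences of the tested members were then 1.83 for Calca, -1.92 for Scg2 and -1.63 for Scg5. Those of Syp, Ncam1 and Chga were -1.49, -1.4 and -0.337.

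Markers of nerve moved with mouse 28 as well. Of 13 markers of neurons and nerve fibres, mouse 28 was the highest library in all 13 and at least 2-fold above the next in 12, the exception being Nefh. Their summed level was 134 scaled FPKM in mouse 28, against 23.4 in mouse 27, 24.9 in mouse 26 and 19.4 in mouse 29. Uchl1, the most abundant of them and also a neuroendocrine marker, was at 9.03, 44.7, 9.0 and 8.57 scaled FPKM across mice 27, 28, 26 and 29. The neuronal tubulin gene Tubb3 was at 2.01, 19.2, 3.14 and 1.58. The enzymes of noradrenaline synthesis followed the same order, with Th at 0.660, 6.23, 0.763 and 0.490 and Dbh at 0.513, 5.53, 0.428 and 0.452. None of the 13 was at 0 in mouse 28, and Nefh, which overlaps the row of Ap1b1, was listed at 0 in mouse 26. By limma none of the 11 tested nerve markers passed (median log2 difference -1.10), while 12 of the 13 have a q-value under 0.05 in the authors' deposited table. The 1 with an unadjusted limma p under 0.05 was Nefh (0.0233), the gene listed at 0 in mouse 26.

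**Figure D4:**
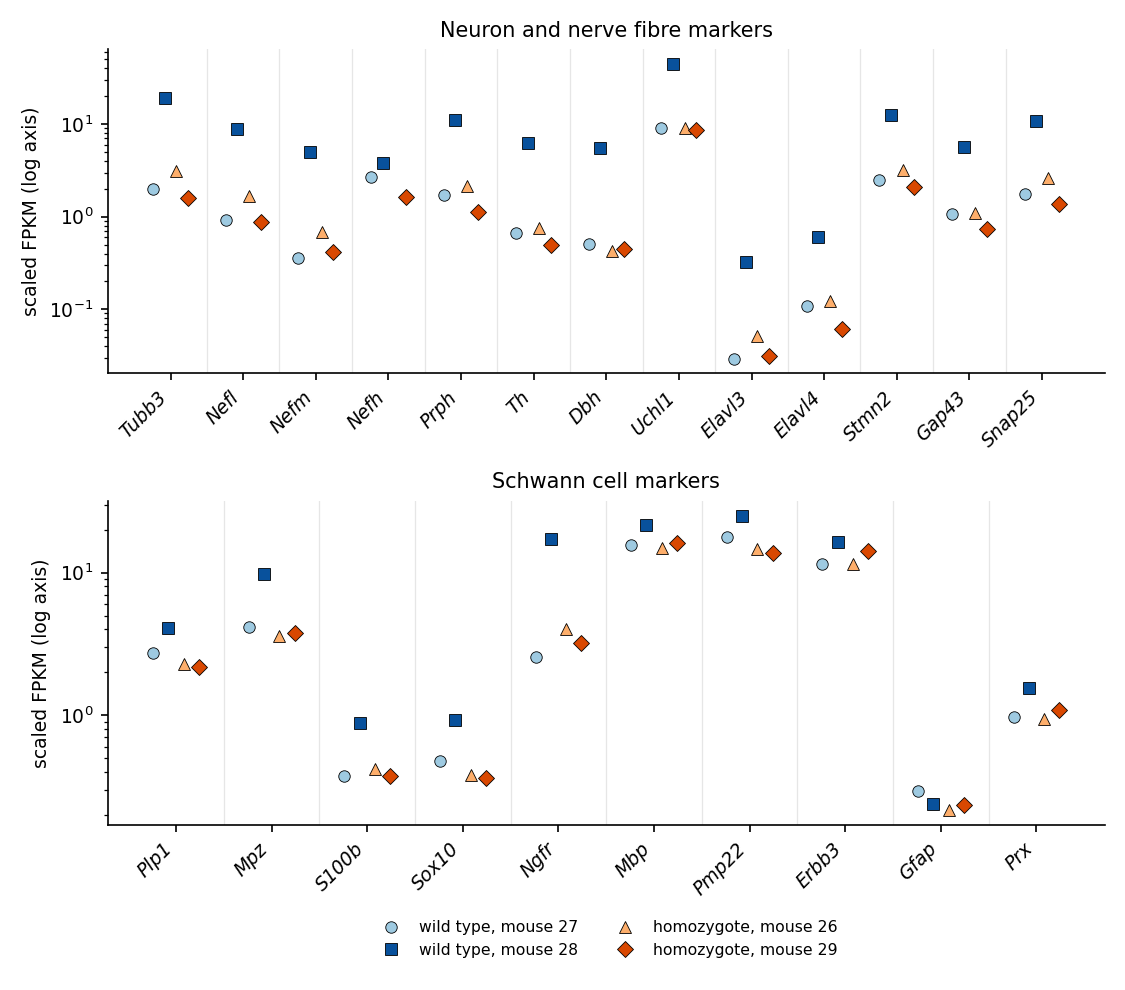
Scaled FPKM (log axis) of 13 neuron and nerve fibre markers (top) and 10 Schwann cell markers (bottom) in each library. Mouse 28 (dark squares) is the highest library for all 13 neuron markers and for 9 of 10 Schwann cell markers; Nefh, listed at 0 in mouse 26, has 3 points.

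Markers of Schwann cells, the glia of peripheral nerve, were higher in mouse 28 by less. Their summed level was 97.7 scaled FPKM there and between 53.0 and 56.3 in the other 3 libraries. Mouse 28 was highest in 9 of 10 and at least 2-fold above the next in 3. Pmp22, a myelin gene and the most abundant of the 10, was at 17.8, 25.1, 14.7 and 13.7 in mice 27, 28, 26 and 29. The part of nerve tissue in the high Scg2, Chgb, Syp, Pcsk1 and Pcsk2 values of mouse 28 was not tested. The neuron sum of mouse 27 lay between those of the homozygotes, and its Scg5 and Ncam1 levels, 3.33 and 4.47 scaled FPKM, lay above theirs. The 10 smooth muscle markers summed to 2785 and 1911 scaled FPKM in the wild types and to 1368 and 1609 in the homozygotes, the same order of genotypes as Ncam1 and Scg5, and their part in those results was not tested.

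**Figure D5:**
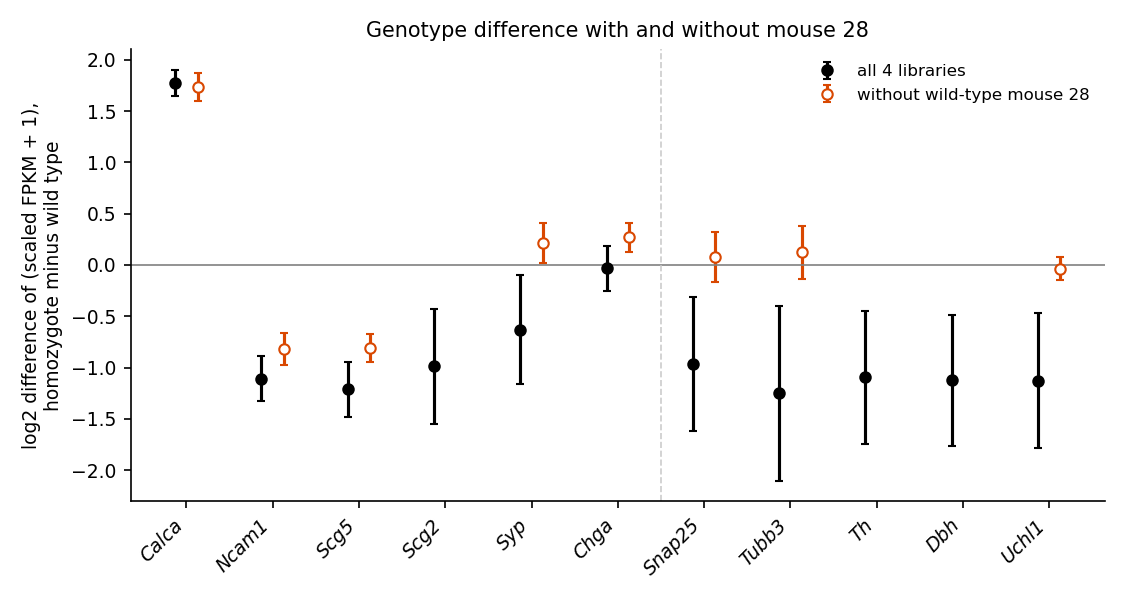
Log2 difference between genotypes (homozygote minus wild type, error bars SE) for the 6 tested members and 5 nerve markers, with all 4 libraries (filled) and without mouse 28 (open). Calca is at 1.78 with all libraries and 1.73 without mouse 28, Ncam1 goes from -1.11 to -0.82 and Scg5 from -1.21 to -0.81, while Syp, Snap25, Tubb3 and Uchl1 come within 0.3 of 0; Scg2, Th and Dbh have no open point because they no longer passed the filter.

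The authors' deposited table calls more of these genes. It gives a q-value under 0.05 to 7 of the 10, against 14.2% of the 14374 genes that have one there, with 1 higher in homozygotes (Calca, log2 fold 3.25), against 7.04%, and 6 lower, against 7.10%. In the authors' deposited table Scg2 has a log2 fold of -2.53 (q-value 4.38e-11), Chgb -2.03, Scg5 -1.89, Pcsk2 -1.81, Ncam1 -1.48 and Syp -1.46. For Syp and Chgb the wild-type libraries lay on both sides of at least 1 homozygote, and for Scg2 only mouse 28 stood apart.

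Among 10 other granule proteins, mouse 28 was the highest library in 7. Of the 10 genes 7 were tested, and 2 rose. The mouse 28 library was at least 2-fold above the next in 5, among them Scg3 (0.176, 1.54, 0.333 and 0.219 scaled FPKM across mice 27, 28, 26 and 29) and Ptprn (0.399, 2.98, 0.336 and 0.341). The genes that rose were Pam and Ptprn2. Pam, the enzyme that amidates peptides such as CGRP and calcitonin at their C terminus, was at 42.5 and 48.6 in wild types and 103 and 79.5 in homozygotes (log2 difference 0.98, SE 0.161, limma adjusted p = 0.0244), and lost the call without mouse 26 and with no filter. Ptprn2, a phosphatase-like membrane protein of dense-core granules, was at 1.80 and 3.07 in the wild types and 10.5 and 11.2 in the homozygotes (1.81, SE 0.192, limma adjusted p = 0.00605), and lost the call only with no filter.

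Enzymes that process prohormones, 16 genes with Pcsk1, Pcsk2, Scg5 and Pam in the list, held 12 tested genes, of which 3 passed upward and none downward. Pcsk5, a further convertase gene, was at 0.697, 1.05, 4.31 and 4.09 scaled FPKM across mice 27, 28, 26 and 29 (1.48, SE 0.140, limma adjusted p = 0.00403). Its mean reached the filter only through the homozygotes, and the call was lost with no filter. Pam was the next. The last, Pcsk7, was listed at 0 in both wild types and at 13.5 and 13.1 in homozygotes, and it overlaps the row of the abundant smooth muscle gene Tagln. In the authors' deposited table its log2 fold is 0.436 (q-value 0.180), so its zeros were not read as absence and no fold is given. Mbtps1, the most abundant of the list, did not pass (-0.17, limma adjusted p = 0.578).

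In vesicle fusion and synaptic vesicle proteins, 20 genes, none of 14 tested passed by limma, 5 had an unadjusted p under 0.05 and 10 of the 20 have a q-value under 0.05 in the authors' deposited table. The list has the member Syp in it. Mouse 28 was at least 2-fold above the next library in 7, among them Syp and Snap25. Snap25, also among the nerve markers above, was at 1.77, 10.7, 2.62 and 1.37 scaled FPKM across mice 27, 28, 26 and 29. Vamp8, a fusion protein of exocrine secretion and the most abundant of the list, lay between 155 and 193 in all libraries.

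Transcription factors that specify neuroendocrine cells were barely detected. Of 14 genes in that list 9 were under 0.2 scaled FPKM in every library, Insm1 among them, and Nkx2-2 was listed at 0 in all 4. Of the 4 tested, 1 rose: Sox2, a progenitor and neuroendocrine factor, went from 2.42 and 3.86 in wild types to 8.35 and 7.40 in homozygotes (1.12, SE 0.189, limma adjusted p = 0.0265), a call lost without mouse 26, without mouse 29, with unscaled FPKM and with no filter. Rest, the repressor of neuronal genes, lay between 2.27 and 2.75 (-0.08, limma adjusted p = 0.795), and the Notch target Hes1, the most abundant, between 42.6 and 65.5.

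Among 14 genes of immunoglobulin-family adhesion and its partners, with Ncam1 in the list, 9 were tested, 1 rose and 3 fell. Chl1, a relative of L1 in growing axons, was at 0.932 and 2.23 scaled FPKM in wild types and 15.6 and 14.4 in homozygotes (2.68, SE 0.247, limma adjusted p = 0.00367), a call lost only with no filter. Alcam (-0.65, SE 0.128, limma adjusted p = 0.0410) and Mcam (-0.62, SE 0.130, limma adjusted p = 0.0486) fell with Ncam1, and both calls were lost without mouse 26, without mouse 29, with unscaled FPKM and with no filter, and that of Mcam also without a variance trend. Cadm1, the most abundant, lay between 12.9 and 15.0.

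Among 18 genes of neuropeptides and amine synthesis, none of 10 tested passed by limma, 1 had an unadjusted p under 0.05 and 7 have a q-value under 0.05 in the authors' deposited table. Npy, a transmitter of sympathetic nerves, was at 4.76, 28.8, 4.44 and 3.67 scaled FPKM across mice 27, 28, 26 and 29, the order of the nerve markers. Penk, the enkephalin precursor and the most abundant of the list, lay between 23.0 and 33.0. Of 5 cytosolic proteins used as neuroendocrine markers, none of 4 tested passed by limma and none had an unadjusted p under 0.05. All 5 were highest in mouse 28 by at least 2-fold. These are not a separate set of genes: Uchl1, Stmn2 and Elavl4 are also among the nerve markers, and Ddc is also in the neuropeptide list.

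Markers of the prostate epithelium itself mostly did not pass with all 4 libraries. The median log2 difference of the 11 tested was 0.22, and 0.50 without mouse 28. Without that mouse Krt5 was at 1.03, Trp63 at 0.56 and Cdh1 at 0.50, and 1 of the 11 was below 0. Of 11 tested 1 rose, Epcam, an epithelial adhesion molecule at 263 and 245 scaled FPKM in the wild types and 442 and 437 in the homozygotes (0.79, SE 0.145, limma adjusted p = 0.0328). That call was lost without mouse 28 (0.0572), without mouse 26 (0.31), without mouse 29 (0.248) and with no filter (0.109). Msmb, a secreted protein and the most abundant of the 11 tested, was at 4240 and 4729 in the wild types and 28100 and 14924 in the homozygotes. It did not pass (limma adjusted p = 0.0626). Tgm4 was not tested because its value in mouse 29 was missing.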

How the data were processed

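RNA of prostate lobes was sequenced in 4 mice, 2 per genotype. The authors deposited 1 FPKM value per gene and library, a unit read from the values. TopHat 1.3, Cufflinks 1.3 and build mm10 are named per the submitters' processing notes, and settings, annotation and strand use are not described there or in the labels. The authors also deposited a fold change per gene (a score on the log2 scale, coded at its ends), a p-value and its q-value, per the file headers.

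The top code 99999 was set to missing. FPKM was divided by median-of-ratios factors (0.921, 1.03, 1.01 and 1.04 in the order mouse 27, 28, 26, 29). Genes whose mean reached 1 and that had no missing value were tested on log2(scaled FPKM + 1) with limma 3.58.1 in R 4.3.3 (trend, two-sided, Benjamini-Hochberg, threshold 0.05). Residual degrees of freedom were 2, to which the prior added 3.62. The fit was also run on data simulated from its own model, which cannot show whether these libraries meet that model. Depth was estimated from the lowest values of genes with 1 transcript, so fragment numbers are approximate. Permutation tests are exact and two-sided.

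The members and lists were chosen with earlier results of these data known. The text names all members, each list's called genes (Epcam and others) and the 5 nearest profiles of each called member. It also names each list's most abundant gene among those with no missing value (Cadm1, Msmb and others). Others were chosen after their values were seen. Each mouse is a separate sample. Alternatives were scaling, pseudocount, filter, trend, each library left out and the authors' comparison.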

Additional observations from a re-analysis of the deposited data

How the results depend on the processing

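No paired analysis was possible because the genotypes share no replicate number. Over all genes 900 were called, among the 10 members 2, and among the pathway genes outside the members 9. With no filter on low values these were 126, 0 and 2. With unscaled FPKM 1 member was called, and with a minimum mean of 5 there were 0, because no member was tested. The authors' deposited comparison calls 2034, 7 and 37. Leaving out each library gave 355 to 2028 genes (355 without mouse 26, 394 without mouse 29, 1630 without mouse 28, 2028 without mouse 27), 1 to 5 members (1 without mouse 26 or mouse 29, 5 without mouse 27) and 5 to 29 pathway genes (5 without mouse 26, 6 without mouse 29, 19 without mouse 28, 29 without mouse 27). A lone library of a genotype was assumed to vary like the other genotype. The cause of these shifts was not tested. The Chga log2 difference, -0.03, was -0.337 without mouse 27, 0.0067 with unscaled FPKM, 0.043 with quantile normalization, 0.27 without mouse 28 and 0.053 without mouse 29. That of Syp, -0.63, was -1.49 without mouse 27 and 0.21 without mouse 28. Without genes listed at 0 in any library, an alternative added after seeing the data, 3 members passed (Scg5 at adjusted p = 0.0493). Members with few estimated fragments, such as Calcb and Pcsk2, allow only large differences to be seen.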

Other observations

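Some peptide genes of the lists lay under the filter or overlapped another gene and had no call with all 4 libraries. They were picked after their values were seen. Gal, the galanin precursor, lay at 0.257 and 0.249 scaled FPKM in the wild types and at 1.59 and 1.84 in the homozygotes. It was higher in both homozygotes, and its mean was just under the filter of 1 scaled FPKM. Without mouse 28 it reached the filter only through the homozygotes, with a log2 difference of 1.11 (SE 0.140). In the authors' deposited table Gal has a log2 fold of 2.87 (q-value 1.79e-05). Iapp, the amylin gene of the calcitonin family, lay at 3.55 and 1.13 scaled FPKM in the wild types and at 0.244 and 0.0880 in the homozygotes, lower in both homozygotes (log2 difference -1.42, SE 0.353, limma adjusted p = 0.0800). Iapp reached the filter only through the wild types, and without mouse 28 only through mouse 27, with a log2 difference of -1.96. In the authors' deposited table its log2 fold is -3.63 (q-value 4.82e-05). It overlaps the row of Slco1a5, which lay between 2.28 and 12.8 scaled FPKM.

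The FPKM columns and the authors' comparison differ for genes that overlap abundant ones. Syn1, the synapsin gene, is listed at 0 in all 4 libraries and overlaps Araf and Timp1, and in the authors' deposited table its log2 fold is -2.18 (q-value 3.34e-10).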
